A study of Mus musculus with 48 samples.

Results

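The genes Pdgfra, Cspg4, Ptprz1, Gpr17, Lhfpl3, Bcan, Vcan, Sox5 and Sox6, which are high in oligodendrocyte progenitors, were followed over all 8 groups of the series. Their members on the array are the 17 probes, of 55681 that are not controls, whose gene name in the scanner files is one of these 9 names, and all 9 genes were found, among 24103 gene names. A gene was read by its brightest probe, the one with the highest mean log2 intensity over the 48 arrays, and its other probes were compared with it.

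O4+ cells and CD11B+ cells were isolated one after the other, with magnetic beads, from the brains of male Swiss pups (the methods give the stock as OF1). O4 is a surface antigen of late oligodendrocyte progenitors and immature oligodendrocytes, and CD11B is an integrin chain of microglia. Pups of the IL1B groups received the cytokine interleukin 1B at 10 ng/g into the peritoneum from P1 to P5, and pups of the PBS groups received phosphate-buffered saline in the same way. Cells were taken at P5, soon after the last injection, or at P10. Each of the 8 groups (O4+ or CD11B+, P5 or P10, PBS or IL1B) has 6 arrays, and the methods state that brains were pooled for a sample and that both cell types came from the same animals. The O4 sort leaves out progenitors that do not yet carry O4, and no group of such cells was measured. The free-text description of the P10 samples repeats P5, whereas their title, source and stage give P10, which was used.

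An oligodendrocyte progenitor divides in response to platelet-derived growth factor, which it senses through the receptor PDGFRA, and it carries the proteoglycan NG2, the product of Cspg4. As it matures it loses both proteins, passes through a premyelinating stage at which the receptor GPR17 is high, and then makes the proteins of myelin. SOX5 and SOX6 are transcription factors known to hold back this maturation, and PTPRZ1, brevican (Bcan) and versican (Vcan) belong to the cell surface and matrix of progenitors and of other cells of the brain.

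The arrays were alike in background, saturation and correlation, but not in brightness. In O4+ cells at P10 the upper quartile of raw intensity was 458 to 562 with PBS and 607 to 838 with IL1B, without overlap. On the P5 PBS arrays of O4+ cells it was 632 to 820. On each of the 48 arrays 52.9% to 65.4% of probes exceeded background clearly, no spot was saturated, and arrays of the same group correlated at 0.962 or above. The lowest correlation belonged to the P5 IL1B group of CD11B+ cells, where replicate 3 stood apart for several of the 9 genes. The summed intensity of 10 microglial genes was 965000 to 1490000 on the CD11B+ arrays and 70700 to 505000 on the O4+ arrays, and 11 of 11 genes of myelinating oligodendrocytes were called higher in O4+ than in CD11B+ cells in PBS pups at both ages. The microglial genes were not absent from O4+ cells, and all 10 were above background on every O4+ array. The arrays of P5 and P10 shared no slide and no scan day, so age and slide cannot be told apart. Treatment was not balanced over slides either. In O4+ cells at P5, IL1B replicates 3 to 6 were on a slide without PBS arrays of these cells. In CD11B+ cells at P5, the 1 slide with both treatments held 4 IL1B arrays and 1 PBS array. IL1B replicates 1 and 3 of that group were on a slide and scan day of their own. In O4+ cells at P10, IL1B replicates 3 to 5 were on a slide without PBS arrays of these cells. In CD11B+ cells at P10, PBS replicates 1 to 4 were on a slide without IL1B arrays of these cells.

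Short stretches of the probes show what was measured. Each line gives the first 30 bases of a 60-base probe, 5′ to 3′, as the scanner files hold it. The first 3 are the brightest probes of the genes that changed in O4+ cells, and the last 3 are the probes of Sox5, which disagreed with each other. For Sox5, capitals mark the triplet GGA.
Pdgfra (chr5:75593888-75593947, plus strand, mm9): tgtatatatctgttgctatgtagacttgga
Cspg4 (chr9:56746627-56746686, plus strand, mm9): ctgacccagaactattgcagttttgccgga
Lhfpl3 (chr5:22608362-22608421, plus strand, mm9): ctatcatcggaatcttagacgccctgatcc
Sox5, brightest probe (chr6:143776945-143776971, minus strand, mm9): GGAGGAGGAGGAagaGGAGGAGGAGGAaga
Sox5, second probe (chr6:143781520-143781579, minus strand, mm9): ttacaagcaaaaacgtcatcaagaagaaga
Sox5, last probe (chr6:143787982-143788041, minus strand, mm9): ctgggcccatgggcaaattcaatcagatgc

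The brightest Sox5 probe holds 16 copies of GGA, which make up 80.0% of its bases, and the annotation in the files places only 27 of its bases. The other 2 Sox5 probes hold 0 copies. Of all 55681 probes, 22 hold 10 or more copies of GGA, and all 22 were well above background on all 48 arrays. In PBS pups at P5, 20 of these 22 probes differed by less than 1 on the log2 scale between O4+ and CD11B+ cells. The values of the brightest Sox5 probe are therefore given as those of this repeat probe, with the second probe beside them.

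In O4+ cells of PBS pups, 3 of the 9 genes fell between P5 and P10 and none rose. They were Pdgfra, the receptor for platelet-derived growth factor AA, Cspg4, the NG2 proteoglycan, and Lhfpl3, a membrane protein of the lipoma HMGIC fusion partner family. Of all genes on the array, 12.3% were called lower and 8.38% higher in this comparison. The median change of the 9 genes was -0.28 on the log2 scale, and that of all genes was -0.005. A gene was called here, and below, at an adjusted p under 0.05 in limma (Benjamini-Hochberg over all probes) where the group medians also differed by more than 1.5 times.

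The intensity of Pdgfra on the log2 scale ran from 15.65 over a median of 15.78 to 15.98 on the 6 PBS arrays of P5, and from 13.98 over 14.50 to 14.93 at P10. Every P10 array lay below every P5 array, and Pdgfra fell by 1.35 (standard error 0.15, adjusted p = 2.75e-05 from limma). Cspg4 ran from 14.60 over 14.76 to 14.86 at P5 and from 13.02 over 13.57 to 14.05 at P10. The groups did not overlap, and Cspg4 fell by 1.15 (standard error 0.15, adjusted p = 9.31e-05 from limma). Lhfpl3 ran from 13.91 over 13.99 to 14.17 at P5 and from 12.91 over 13.21 to 13.39 at P10. It too was lower on every P10 array, and it fell by 0.86 (standard error 0.10, adjusted p = 2.91e-05 from limma). Its second probe, in transcript variant 2, fell by 0.94 (adjusted p = 8.55e-05 from limma).

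Ptprz1, a receptor-type phosphatase that binds pleiotrophin and midkine, ran from 15.83 to 16.08 at P5 and from 15.17 to 15.73 at P10. The groups did not overlap and the adjusted p was 0.000373 in limma for a change of -0.57, but the ratio of medians did not exceed the threshold. Its second probe, which lies beside the first in the transcript, passed both criteria, with a change of -0.60. With quantile normalisation the other genes moved less. The change was 0.02 for Gpr17 (95% confidence interval -0.10 to 0.15), 0.10 for Bcan (-0.02 to 0.22), 0.10 for Vcan (-0.04 to 0.23) and -0.18 for Sox6 (-0.33 to -0.04). The repeat probe of Sox5 changed by -0.28 and the second Sox5 probe by -0.53, and neither passed the fold threshold. These values depended on scaling. With each array scaled to its upper quartile, the median change of all genes was 0.18. Gpr17 then rose by 0.36 (adjusted p = 0.00553), Bcan by 0.54 (0.000143) and Vcan by 0.46 (0.00045, all from limma), without a call. Ptprz1 and Sox6 changed by -0.18 and -0.15 with that scaling. Lhfpl3 changed by -0.49 (adjusted p = 0.00199 from limma) and lost its call, so 2 of the 9 genes, Pdgfra and Cspg4, were called. In sorted bulk samples, fewer cells of a type and less RNA per cell cannot be told apart.

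**Figure D1:**
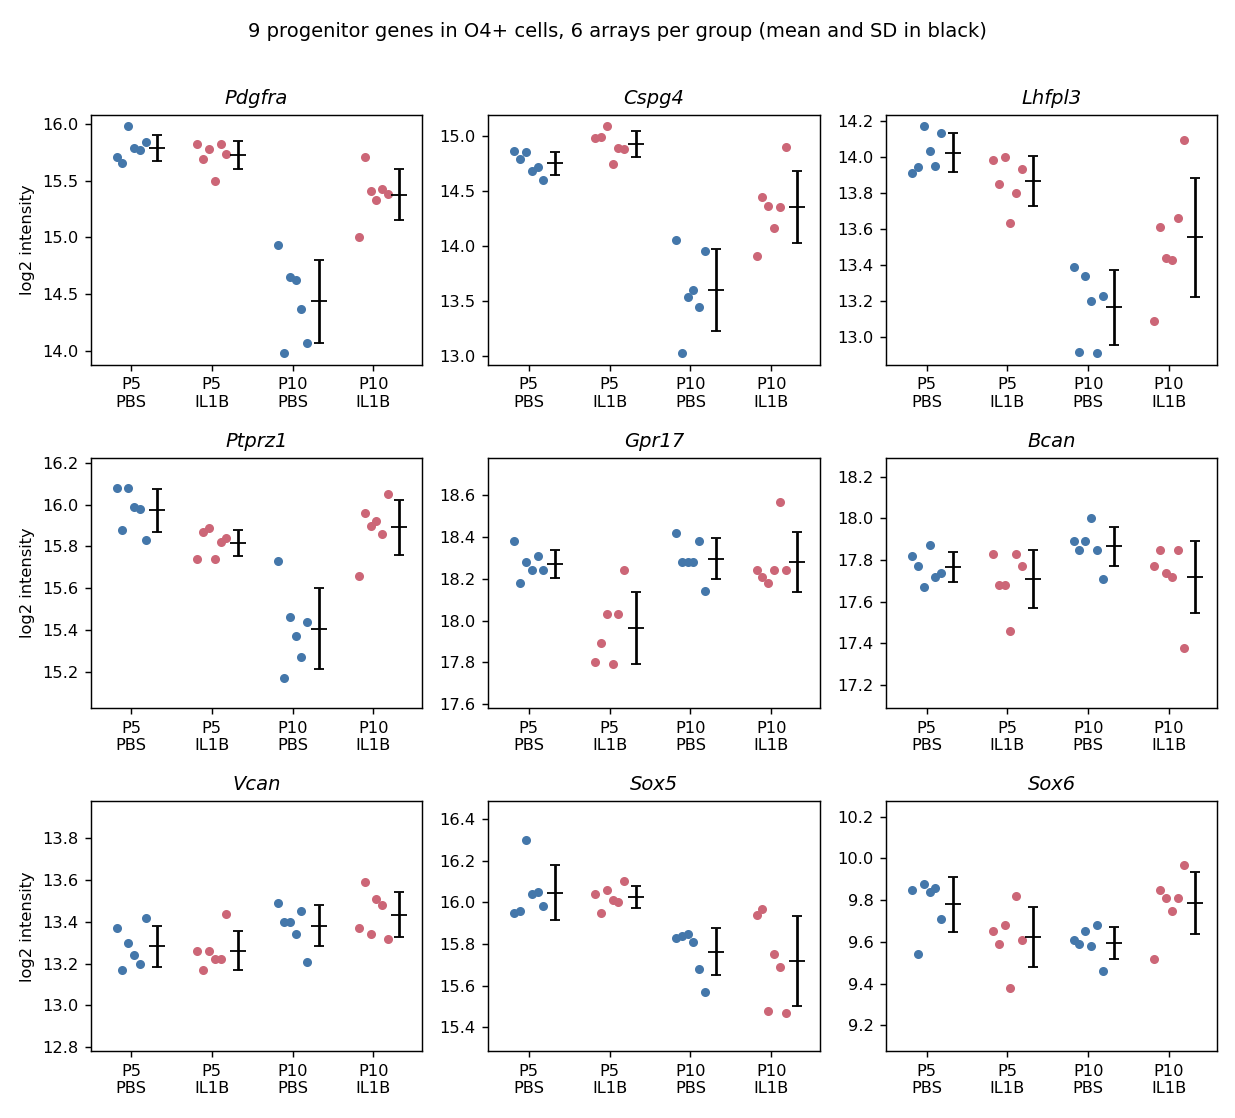
Log2 intensity of the 9 genes (brightest probe) on each of the 24 O4+ arrays, normalised over O4+ arrays; points are arrays (blue PBS, red IL1B), black marks the mean and SD of 6 arrays, and each panel has its own vertical range. Pdgfra, Cspg4 and Lhfpl3 sit lower on all PBS arrays of P10 than on those of P5, and the P10 IL1B arrays of Pdgfra, from 15.00 to 15.71, lie above the P10 PBS arrays.

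Other lists moved between the same groups. All 8 cell cycle genes fell, with summed intensities of 40800 to 49800 at P5 and 16400 to 21100 at P10, and 10 of 11 genes of myelinating oligodendrocytes rose, from 262000 to 297000 at P5 and from 955000 to 1140000 at P10. PDGFRA is also made by fibroblasts and NG2 by pericytes, and markers of both cell types were detected. The summed intensity of 5 fibroblast genes was 6200 to 17200 at P5 and 3550 to 5410 at P10, and all 5 fell. That of 6 pericyte genes was 2940 to 7410 at P5 and 2460 to 3920 at P10, and 5 fell. Microglial genes fell as well, 9 of 10 of them, with summed intensities of 149000 to 232000 at P5 and 70700 to 127000 at P10, and so did 2 of 5 endothelial genes (22800 to 51200 and 15700 to 22400). Of 7 astrocyte genes 1 fell. Of 7 neuron genes 2 fell and 1 rose, and their summed intensity was 49000 to 67300 at P5 and 100000 to 130000 at P10. The part of these cells in the fall of Pdgfra and Cspg4 was not tested.

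At P5, IL1B changed none of the 9 genes in O4+ cells by the call used. Of all genes, 4.78% were called higher and 1.73% lower. The 9 changes lay between -0.30 and 0.18, with a median of -0.07. Pdgfra ran from 15.50 over 15.75 to 15.82 in IL1B pups, against 15.65 to 15.98 in PBS pups. The groups overlapped, and the change was -0.07 (95% confidence interval -0.22 to 0.08). The lowest change was that of Gpr17, a receptor of premyelinating cells, whose 6 IL1B arrays ran from 17.79 over 17.96 to 18.24 and whose PBS arrays ran from 18.18 over 18.26 to 18.38. Its change of -0.30 had an adjusted p of 0.0158 in limma and a ratio of medians below the threshold. With the fold threshold left out, Gpr17 was the only one of the 9 genes called by its brightest probe. Other probes also had adjusted p under 0.05 in limma, without reaching the fold threshold. They were the second Ptprz1 probe (-0.21, adjusted p = 0.0359) and the second Sox5 probe (-0.27, adjusted p = 0.0209). The other Vcan probes changed by -0.21 (adjusted p = 0.0353) and 0.25 (adjusted p = 0.0392). The repeat probe of Sox5 changed by -0.02. The summed intensity of 8 premyelinating genes was 141000 to 180000 with IL1B and 191000 to 229000 with PBS, and 2 were called lower. That of 11 genes of myelinating oligodendrocytes was 165000 to 242000 against 262000 to 297000, and 1 was called lower. The microglial genes of the O4+ fraction were higher with IL1B in this comparison, at 392000 to 505000 against 149000 to 232000 with 8 of 10 called higher. All 6 genes of neutrophils and monocytes were called higher too (1360 to 33200 against 105 to 282), and 3 of 5 endothelial genes lower. The part of these cells in the values of the 9 genes was not tested.

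At P10, 5 days after the injections ended, IL1B raised 2 of the 9 genes in O4+ cells, Pdgfra and Cspg4, and lowered none. Of all genes, 3.56% were called higher and 1.65% lower. Both were among the 3 genes that fell with age in PBS pups, and both comparisons use the same P10 PBS arrays. The median change of the 9 genes was 0.19, and that of all genes was -0.007.

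Pdgfra ran from 15.00 over 15.39 to 15.71 on the 6 IL1B arrays, against 13.98 over 14.50 to 14.93 on the PBS arrays. Every IL1B array lay above every PBS array. Pdgfra rose by 0.94, with a standard error of 0.17 (limma, adjusted p = 0.00668). Cspg4 ran from 13.91 over 14.35 to 14.90 with IL1B and from 13.02 over 13.57 to 14.05 with PBS. The lowest IL1B array lay below the highest PBS array, and Cspg4 rose by 0.76, with a standard error of 0.19 (limma, adjusted p = 0.0286). The call of Cspg4 was lost in 7 of 12 fits that each left out 1 array, where its adjusted p reached 0.0632 at the most (limma), and also with slide as a block (0.73, adjusted p = 0.0584). The call of Pdgfra was kept in all 12 of those fits and with the slide block. On the slide that held 5 PBS and 2 IL1B arrays of this comparison, the IL1B mean was higher by 0.84 for Pdgfra and by 0.65 for Cspg4, and on the slide with 1 array of each it was higher by 1.31 and 0.96.

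Ptprz1 and Lhfpl3 lay in the same direction without a call. Ptprz1 ran from 15.66 over 15.91 to 16.05 with IL1B, and 5 of its 6 IL1B arrays lay above every PBS array. Its change was 0.49 (adjusted p = 0.00921 from limma), with a ratio of medians below the threshold. Lhfpl3 changed by 0.39 (95% confidence interval 0.05 to 0.72, adjusted p = 0.14) and its second probe by 0.48 (adjusted p = 0.0464, both from limma), and neither was called. Gpr17, Bcan, Vcan and Sox6 changed by -0.01, -0.15, 0.05 and 0.19, with adjusted p from 0.13 to 0.926 in limma. The repeat probe of Sox5 changed by -0.05 and the second Sox5 probe by -0.09, and neither was called. For Gpr17 the 95% confidence interval was -0.18 to 0.15. Gpr17 was the brightest of the genes followed here, and several arrays of a group shared a value (18.24 with IL1B, 18.28 with PBS). Quantile normalisation sets such values by rank, so the interval holds for that scaling only and cannot exclude a larger change. With each array scaled to its upper quartile, Gpr17 changed by -0.38 (adjusted p = 0.0173) and Bcan by -0.54 (adjusted p = 0.0101, both from limma), again without a call.

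The calls at P10 depended on scaling. Under upper-quartile scaling the median change of all genes in this comparison was -0.14, and neither gene was called. Pdgfra then changed by 0.63 (adjusted p = 0.0148 from limma), which is 0.77 relative to that median, and Cspg4 by 0.52 (adjusted p = 0.0556), or 0.66 relative to it. Of 8 cell cycle genes, 5 rose with IL1B at P10 (summed intensity 26500 to 32300 against 16400 to 21100), and 5 of 11 genes of myelinating oligodendrocytes fell (711000 to 914000 against 955000 to 1140000). The fibroblast genes lay at 4610 to 10800 against 3550 to 5410, with 2 of 5 called higher, and the pericyte genes at 2730 to 4650 against 2460 to 3920, with 0 of 6 called. Of 7 astrocyte genes 4 were called higher, and their summed intensity, 9290 to 13300 with IL1B and 6060 to 8670 with PBS, did not overlap between the groups. Of 7 neuron genes 2 were called higher, whereas their summed intensity was 70300 to 107000 with IL1B and 100000 to 130000 with PBS. Of 10 microglial genes 5 were called higher (106000 to 166000 against 70700 to 127000), as were 5 of 6 genes of neutrophils and monocytes (343 to 1370 against 58.7 to 203). The part of these cells in the values of Pdgfra and Cspg4 was not tested.

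**Figure D2:**
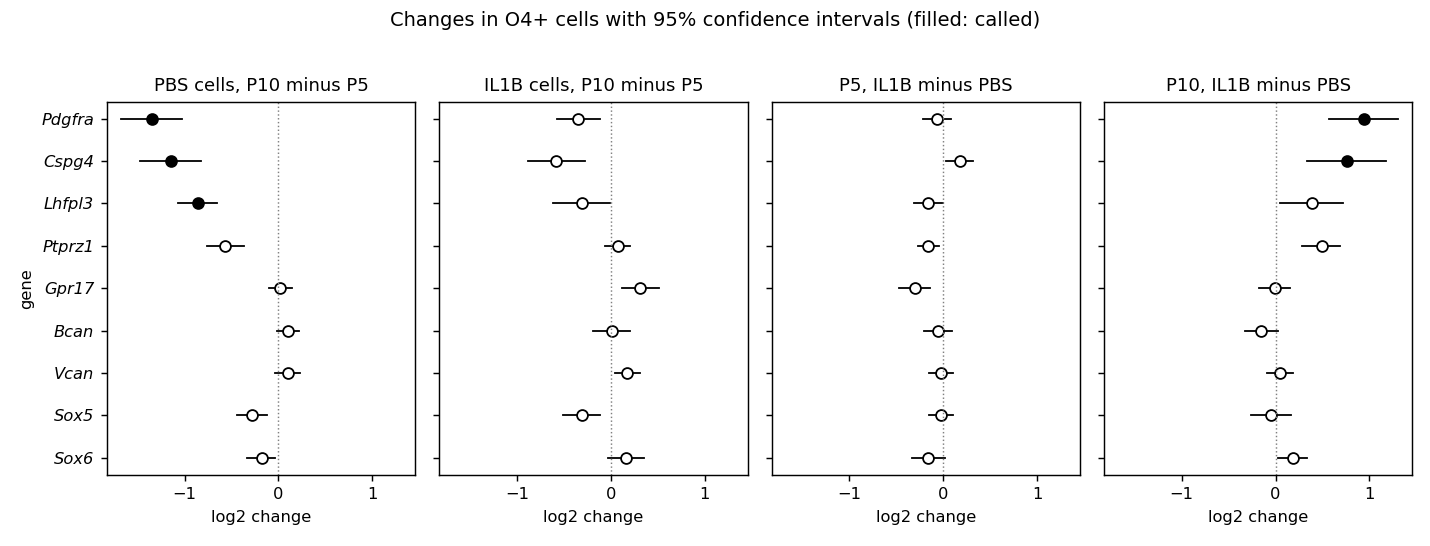
Log2 change of each of the 9 genes in O4+ cells with its 95% confidence interval from limma, 6 arrays against 6 in each panel; filled points are called (adjusted p under 0.05 and a ratio of medians over 1.5). Pdgfra and Cspg4 lie to the left between P5 and P10 in PBS cells and to the right for IL1B against PBS at P10. For IL1B at P5 no gene is called. The intervals of Gpr17 (-0.47 to -0.14), Ptprz1 (-0.27 to -0.04) and Cspg4 (0.03 to 0.32) leave out 0 there.

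The response to IL1B differed between the ages for 4 of the 9 genes. This was tested as an interaction in limma, without a fold threshold, and 11.5% of all genes passed in the same direction (response more positive at P10) and 6.76% in the other. The difference of responses, P10 minus P5, was 1.00 for Pdgfra (standard error 0.18, adjusted p = 0.000912), 0.65 for Ptprz1 (0.11, adjusted p = 0.000424), 0.54 for Lhfpl3 (0.17, adjusted p = 0.0393) and 0.34 for Sox6 (0.11, adjusted p = 0.0367), all from limma. For Cspg4 it was 0.58 (95% confidence interval 0.15 to 1.01) and its adjusted p of 0.071 did not pass. The calls of Pdgfra and Ptprz1 were kept in all 24 fits that left out 1 array, whereas that of Lhfpl3 was lost in 11 and that of Sox6 in 14 of them. With upper-quartile scaling Pdgfra alone of these 4 was called, at 0.62 (adjusted p = 0.015 from limma), and Bcan was called in the other direction, at -0.49 (adjusted p = 0.0134).

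In IL1B pups none of the 9 genes was called between P5 and P10, while 6.76% of all genes were called higher and 8.06% lower. Pdgfra changed by -0.35 (adjusted p = 0.0235 from limma) and Cspg4 by -0.58 (adjusted p = 0.00757), and neither ratio of medians exceeded the threshold. Cspg4 was called lower when the 48 arrays were normalised together (-0.61) and in 3 of 12 fits without 1 array. The median of the P10 IL1B arrays lay between those of the P5 PBS and the P10 PBS arrays for 5 of the 9 genes, Pdgfra, Cspg4, Ptprz1, Lhfpl3 and Sox6. This held for 62.4% of all genes, so the share among the 9 is near that of the array.

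The partners of these genes changed with age in both directions in PBS O4+ cells. Of 6 ligands and receptors, 2 rose and 3 fell. Pdgfa, which encodes the ligand of PDGFRA, rose by 1.16 and Pdgfc, another ligand, by 0.99. Ptn and Mdk, which encode the PTPRZ1 ligands pleiotrophin and midkine, fell by 0.64 and 0.73 (adjusted p = 2.59e-05 and 0.000122 from limma). None of the 6 was called with IL1B at either age.

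Among 6 matrix genes, Ncan (neurocan) fell with age by 0.96 and Acan (aggrecan) by 0.73, and Tnr (tenascin R) rose by 0.62 and Hapln1, a link protein, by 0.85. Hapln2 was not well above background on any P5 PBS array and was above it on all 6 P10 arrays. With IL1B at P10 Ncan alone was called, and it rose by 0.65. Among 6 other Sox genes, Sox9 fell with age by 1.44, Sox11 fell by 1.01 and Sox13 rose by 0.54. With IL1B at P10 Sox9 rose by 0.68 and Sox11 by 0.55. The falls and rises of Ncan, Sox9 and Sox11 share the same P10 PBS arrays and are not independent. Sox10, which marks the whole lineage, changed by 0.30 with age and by 0.01 with IL1B at P10, without a call.

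A list of 12 other genes that are high in progenitors was read beside the 9. In PBS cells 2 fell between P5 and P10 and none rose, against 12.3% and 8.38% of all genes. Rlbp1, a retinaldehyde-binding protein, fell by 1.5 and Pcdh15, a protocadherin, by 1.06. With IL1B at P10, 2 rose, against 3.56% of all genes. They were Rlbp1, by 1.06 (adjusted p = 0.00746 from limma), and Pcdh15, by 0.67 (adjusted p = 0.0065). Both comparisons use the same P10 PBS arrays, so the fall and the rise are not independent. At P5 the homeobox gene Nkx2-2 was the only one called with IL1B, and it fell by 0.59, where 1.73% of all genes were called lower. The interaction was called in the direction of a more positive response at P10 for 7 of the 12, against 11.5% of all genes. Among them were Olig1, Olig2, Pcdh15 and Rlbp1. The 7 differences of responses ran from 0.33 for Olig1 to 1.37 for Rlbp1.

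Probes of 1 gene did not always move alike. The brightest Bcan probe, for transcript variant 1, changed by 0.10 with age in PBS O4+ cells, whereas the second, for variant 2, ran from 12.35 to 12.66 at P5 and from 11.82 to 12.22 at P10. The groups of the second probe did not overlap, with a change of -0.43 (adjusted p = 0.00105 from limma), and at P10 it was higher with IL1B by 0.43 (adjusted p = 0.0146). Neither change reached the fold threshold. The 2 Bcan probes lie on chromosome 3 and begin with the following bases, shown because they read different transcripts.
Bcan, variant 1 (chr3:87791457-87791516, minus strand, mm9): caaagagtttttaggatggagtaccagcaa
Bcan, variant 2 (chr3:87796466-87796525, minus strand, mm9): cttaagccactacttctgtgaagtattttt

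For Vcan, the brightest probe changed by 0.10 with age and one of the 2 probes of variant 5 by 0.60, from 7.65 to 8.05 at P5 and from 8.43 to 8.63 at P10, without overlap (adjusted p = 5.07e-05 from limma). The other variant 5 probe changed by 0.23. The remaining Ptprz1 probe was well above background on 1 of 6 PBS arrays and on 5 of 6 IL1B arrays at each age, and no change of it was called.

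All 9 genes, Sox5 by its repeat probe, were called higher in O4+ than in CD11B+ cells of PBS pups, at P5 and at P10. In each case every O4+ array lay above every CD11B+ array, but how often this held among all genes was not counted. Of all genes, 23.9% were called higher in O4+ cells at P5 and 26.8% at P10, and 23.0% and 22.4% were called lower. At P5 the difference had a median of 4.46 over the 9 genes, and without Sox5 it ran from 3.97 for Bcan to 4.79 for Vcan. At P10 the median was 3.20, and the differences ran from 2.82 for Pdgfra to 4.17 for Sox6, again without Sox5. All of the adjusted p-values of these 8 genes were at most 6.99e-08 in limma. On the values normalised over 48 arrays, Pdgfra had a mean of 15.95 ± 0.12 (SD, n = 6) in O4+ cells and 11.36 ± 0.31 (n = 6) in CD11B+ cells at P5, a difference of 4.59 (95% confidence interval 4.30 to 4.87).

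Sox5 was the exception in size. Its repeat probe had a mean of 16.21 ± 0.13 (SD, n = 6) in O4+ cells and 15.40 ± 0.06 in CD11B+ cells at P5, a difference of 0.82. With upper-quartile scaling that difference was -0.01 and with the deposited matrix -0.11, so its direction turned with the scaling. At P10 the repeat probe differed by 0.53, and that call was lost in 3 of 12 fits that each left out 1 array. It was also lost with normexp and with quantile normalisation of the 12 arrays alone (0.51 in both), with upper-quartile scaling (0.20) and with the deposited matrix (0.06, adjusted p = 0.579 from limma). The second probe had a mean of 5.51 ± 0.14 in O4+ cells and was above background on all 24 O4+ arrays. It was not well above background on any of the 24 CD11B+ arrays. The last probe was above background on all 24 O4+ arrays and on 3 of the CD11B+ arrays.

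**Figure D3:**
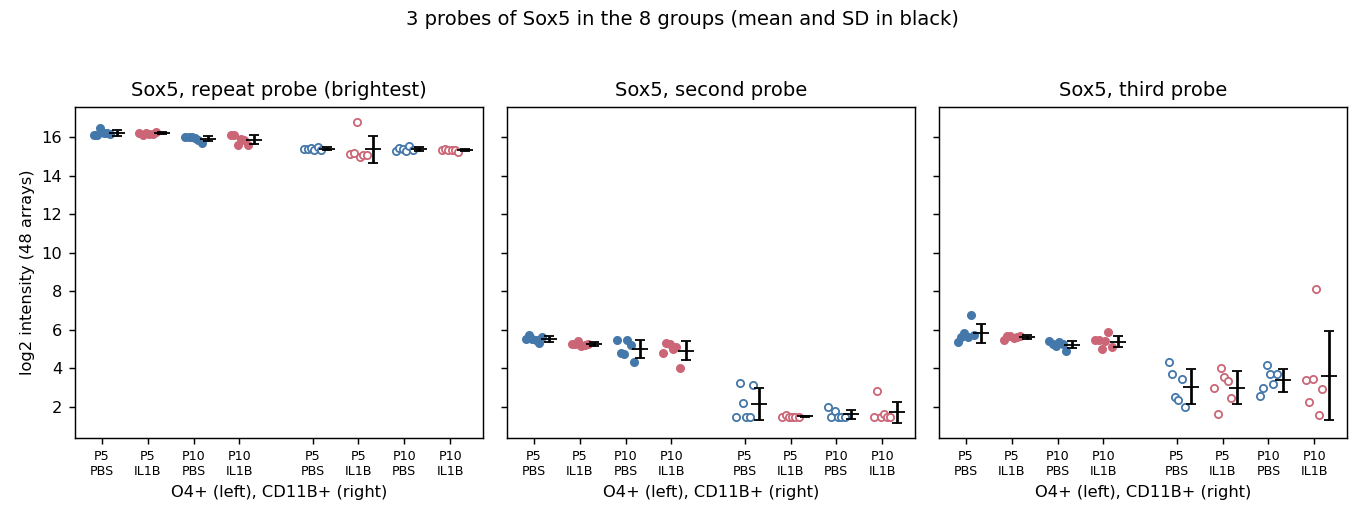
Log2 intensity of the 3 Sox5 probes on all 48 arrays, normalised over 48 arrays; filled points are O4+ and open points CD11B+ arrays (blue PBS, red IL1B), and black marks the mean and SD of 6 arrays. The repeat probe has nearly the same intensity in both cell types, and the other 2 probes are higher in O4+ cells.

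The 9 genes were measured in CD11B+ cells too, where 8 of them were well above background on every array, Sox5 by its repeat probe. Bcan, Cspg4, Gpr17, Lhfpl3, Pdgfra, Ptprz1 and Vcan ranged between 7.89 and 15.47 there on the scale normalised over CD11B+ arrays. Sox6 was above background on 20 of the 24. Genes of other stages of the lineage were detected in the same samples: the summed intensity of the 11 genes of myelinating oligodendrocytes was 7240 to 8340 in PBS cells at P5 and 20100 to 77700 at P10, and 12 of 12 other progenitor genes were above background on all CD11B+ arrays. Whether these transcripts come from the microglia or from other cells of the fraction was not tested.

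Gpr17 was called in all 3 comparisons within CD11B+ cells. In PBS pups it ran from 13.43 over 14.00 to 14.20 at P5 and from 14.97 over 15.31 to 15.47 at P10. The groups did not overlap, and it rose by 1.35, with a standard error of 0.15 (limma, adjusted p = 7.51e-05). Vcan was the other gene that rose with age, by 0.85 (adjusted p = 0.0116 from limma), with overlapping groups. Of all genes, 4.95% were called higher and 4.54% lower. In the same comparison 5 of 8 premyelinating genes and 10 of 11 myelinating genes rose, and their part in the rise of Gpr17 was not tested.

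With IL1B at P5, 2 of the 9 genes fell in CD11B+ cells and none rose, against 7.29% and 5.23% of all genes. Gpr17 ran from 12.30 over 12.88 to 13.01 with IL1B, below every PBS array, and fell by 1.11 (standard error 0.16, adjusted p = 0.000422 from limma). Lhfpl3 ran from 7.98 over 8.40 to 8.61 with IL1B and from 8.64 over 9.11 to 9.5 with PBS, and it fell by 0.74 (standard error 0.17, adjusted p = 0.0089 from limma). The call of Lhfpl3 was lost without PBS replicate 1, 5 or 6. It was also lost with slide as a block, where its change was -1.01 and rested on the 1 PBS array that shared a slide with IL1B arrays. Among genes of other stages, 4 of 12 other progenitor genes, 4 of 8 premyelinating and 3 of 11 myelinating genes were called lower, and 2 of the 11 myelinating genes were called higher. All 6 genes of neutrophils and monocytes, which also carry CD11B, rose, with summed intensities of 26300 to 59900 with PBS and 320000 to 479000 with IL1B. The part of these cells in the changes of the 9 genes was not tested. Pdgfra changed by -0.58 (adjusted p = 0.0211 from limma), without reaching the fold threshold. The changes of Ptprz1 (-0.74), Bcan (-0.72) and Sox6 (-0.93) were as large as that of Lhfpl3 but had adjusted p from 0.0776 to 0.137 in limma. In the P5 PBS group, replicate 5 was highest for Ptprz1 at 13.51 and for Bcan at 15.19, and without it the changes were -0.45 and -0.49 (adjusted p = 0.0412 and 0.0469 from limma). Without IL1B replicate 3, Gpr17 fell by 1.01 (adjusted p = 0.000467 from limma).

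At P10 Gpr17 alone was called with IL1B in CD11B+ cells, and 1.27% of all genes were called lower and 1.44% higher. It ran from 14.36 over 14.61 to 14.89 with IL1B, again below every PBS array, and fell by 0.62 (standard error 0.11, adjusted p = 0.017 from limma). With slide as a block its change was -0.65 with an adjusted p of 0.332, and with the deposited matrix it was -0.51 with 0.0569. Genes of myelinating oligodendrocytes moved the same way, with 7 of 11 called lower and summed intensities of 12800 to 19500 against 20100 to 77700. Their part in the fall of Gpr17 was not tested.

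**Figure D4:**
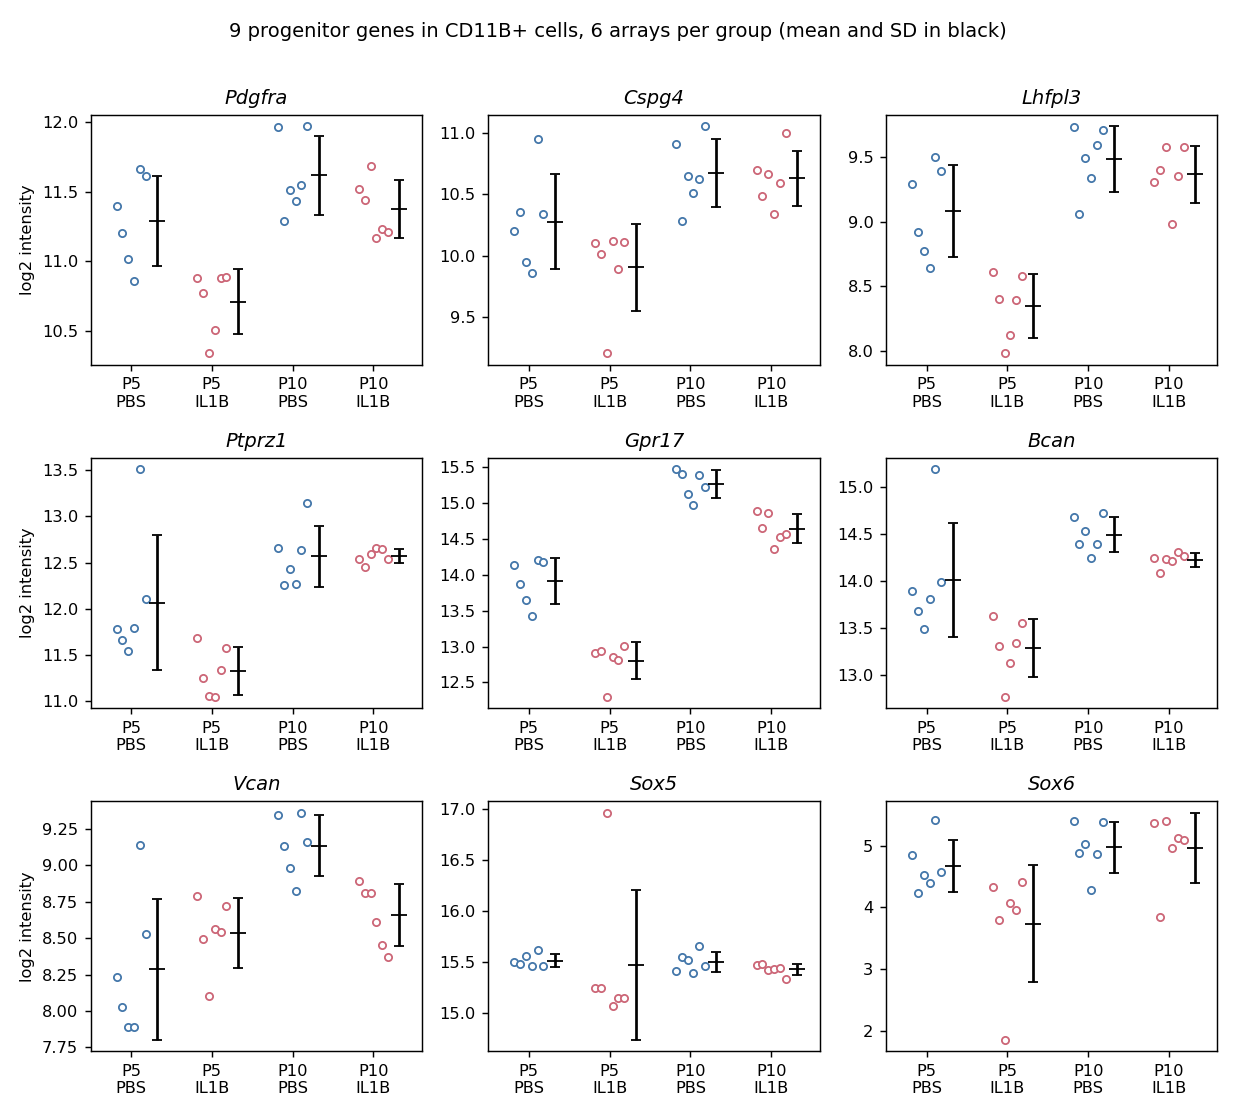
Log2 intensity of the 9 genes (brightest probe) on each of the 24 CD11B+ arrays, normalised over CD11B+ arrays; open points are arrays (blue PBS, red IL1B), black marks the mean and SD of 6 arrays, and each panel has its own vertical range. Gpr17 is ordered P10 PBS, P10 IL1B, P5 PBS, P5 IL1B without overlap between neighbours, and single arrays stand apart for Ptprz1, Bcan, Sox5 and Sox6.

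Pdgfra, Cspg4 and Lhfpl3 had their highest means in the 2 O4+ groups of P5, then in O4+ cells of P10 IL1B pups, then in O4+ cells of P10 PBS pups. For Pdgfra the first 3 of these overlapped with their neighbours, and the P10 PBS group lay below them without overlap. Gpr17, Bcan, Vcan and Sox6 had O4+ groups that overlapped with their neighbours throughout. In CD11B+ cells the P5 IL1B group had the lowest mean for 7 of the 9 genes, Pdgfra, Cspg4, Ptprz1, Gpr17, Lhfpl3, Bcan and Sox6. Of these, only Gpr17 and Lhfpl3 had no overlap with the next group, and replicate 3 stood apart as lowest for Cspg4, Gpr17 and Sox6. How often this order held among all genes was not counted.

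Likeness to other genes was measured as the root mean square difference between the 8 group means (log2, each gene centred), over 15405 genes above background on all O4+ arrays. Closest to Pdgfra were Tmem179 (0.12), the Notch ligand Dll3 (0.13) and the potassium channel Kcnd2 (0.13), where Pdgfra itself spans 5.13 over the 8 groups. Among the 9 genes the closest pair was Pdgfra and Cspg4 (0.14), followed by Ptprz1 and Bcan (0.24). The 8 groups include both cell types, whose means lie further apart for these genes than those within O4+ cells. A small difference therefore need not mean a like change within O4+ cells. There Ptprz1 and Bcan changed by -0.57 and 0.10 with age in PBS pups, and by 0.49 and -0.15 with IL1B at P10. The closest genes outside the list were Lnx1 for Cspg4 (0.11), Ap3b2 for Ptprz1 (0.07), Ankrd34b for Gpr17 (0.11), Tpm1 for Lhfpl3 (0.09), Luzp2 for Bcan (0.08), LOC100505348 for Vcan (0.17) and Efs for Sox6 (0.10). The repeat probe of Sox5 was closest to Gnl1 (0.05), and it spans only 0.90.

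Since Pdgfra and Cspg4 moved together, the 250 bases before their annotated starts are shown, from the RefSeq promoter table (GRCm38.p6), which holds 8 of the 9 genes. Capitals mark CANNTG, the E-box core read by basic helix-loop-helix factors such as OLIG2, and ACAAT or its reverse complement ATTGT, part of the sequence that SOX factors recognise, searched on both strands.
Pdgfra (chr5:75152001-75152250, plus strand): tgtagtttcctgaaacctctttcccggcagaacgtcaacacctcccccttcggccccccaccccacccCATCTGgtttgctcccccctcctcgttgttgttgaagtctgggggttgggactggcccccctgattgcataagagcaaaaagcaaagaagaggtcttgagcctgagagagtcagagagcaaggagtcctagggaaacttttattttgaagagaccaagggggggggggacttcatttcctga
Cspg4 (chr9:56864854-56865103, plus strand): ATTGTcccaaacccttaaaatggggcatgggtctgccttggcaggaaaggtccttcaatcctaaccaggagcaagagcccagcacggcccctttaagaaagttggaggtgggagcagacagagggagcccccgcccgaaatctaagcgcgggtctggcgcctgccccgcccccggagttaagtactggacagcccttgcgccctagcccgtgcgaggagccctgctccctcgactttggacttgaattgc

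The window of Pdgfra held 1 CANNTG and 0 copies of the SOX letters, and that of Cspg4 held 0 and 1. Of 32851 windows of the same length over all genes, 66.2% held CANNTG and 27.7% held ACAAT or ATTGT. These letters are a description of the windows, and no binding was measured here.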

How the data were processed

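RNA of O4+ and CD11B+ cells was labelled with Cy3 and hybridised to 48 one-colour Agilent mouse arrays, 6 per group. The deposited scanner files (Agilent Feature Extraction 10.7.3.1, probe positions on mm9) hold intensities with the background already subtracted. The deposited matrix of the authors holds linear ratios of each intensity to the median of its array (largest deviation 1.86e-05 on the log2 scale) and was used as an alternative.

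Of 59305 spots that are not controls, 278 non-uniform ones were left out over all arrays. Log2 intensities were quantile normalised within a cell type, or over 48 arrays for O4+ against CD11B+, averaged over the spots of a probe, and tested with limma 3.58.1 in R 4.3.3 (the package data.table, version 1.17.8). P-values were adjusted by Benjamini-Hochberg over 55681 probes. A call needed an adjusted p under 0.05 and, except for the interaction, a ratio of group medians over 1.5. Each gene was read by its brightest probe. Summed intensities add up the genes of a list on an array. P-values measure the spread between pooled samples, and the number of arrays limits precision. The steps were tested on simulated data.

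The members and the gene lists were chosen with earlier results of these data known. The named genes were the 9 members, the fixed lists and, by likeness of the 8 group means, 3 genes for Pdgfra and 1 for each other member. A single gene of these lists enters their counts, and its own values are not reported here. Alternatives were normexp background correction (offset 50), upper-quartile scaling, normalisation over other sets of arrays, the deposited matrix, a filter on dim probes, the equal-variance test of the methods, no fold threshold, any probe of a gene, slide, scan date or replicate number as a block, and leaving out each array. Reading Sox5 by another probe was added after seeing the data. Promoter sequences are from RefSeq (GRCm38.p6).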

Additional observations from a re-analysis of the deposited data

Results flagged for a closer look

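In 11 of 72 sets of 6 arrays (9 genes in 8 groups), 1 array stood apart by the ratio of its gap to the range of the group, and chance gives this in about 5% of sets. Of these, 4 came from replicate 3 of the P5 IL1B group of CD11B+ cells. It was lowest for Cspg4 (9.2 against 9.89 for the nearest array, ratio 0.75), for Gpr17 (12.3 against 12.81, ratio 0.71) and for Sox6 (1.85 against 3.8, ratio 0.762), and highest for the repeat probe of Sox5 (16.97 against 15.24, ratio 0.908). Replicate 5 of the P5 PBS group of CD11B+ cells was highest for Ptprz1 (13.51 against 12.11, ratio 0.718) and for Bcan (15.19 against 13.99, ratio 0.705). The other array of CD11B+ cells was replicate 2 of the P10 IL1B group, lowest for Sox6 (3.85 against 4.96, ratio 0.714).

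Among O4+ cells, replicate 5 of the P10 IL1B group was highest for Gpr17 (18.57 against 18.24, ratio 0.834) and replicate 6 lowest for Bcan (17.38 against 17.72, ratio 0.732). Replicate 6 of the P5 IL1B group was highest for Vcan (13.44 against 13.26, ratio 0.668), and replicate 3 of the P5 PBS group was highest for the repeat probe of Sox5 (16.3 against 16.05, ratio 0.691).

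The response to IL1B in O4+ cells differed between P10 and P5, by the interaction in limma, for Pdgfra (1.00), Ptprz1 (0.65), Lhfpl3 (0.54) and Sox6 (0.34).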

How the results depend on the processing

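Of 118 counts of called genes under an alternative other than leaving out an array, 101 lay within 1.5 times the reported count. Without a fold threshold the counts were 1 for IL1B at P5, 6 for age in PBS and 4 for age in IL1B O4+ cells, and 2 for IL1B at P10 in CD11B+ cells. Upper-quartile scaling gave 0 genes for IL1B at P10 in O4+ cells and 2 for the interaction, 1 in each direction. For age in IL1B O4+ cells, normexp and normalisation over 48 arrays each gave 1. With slide as a block the counts were 1 for IL1B at P10 in O4+ cells, 2 for the interaction, 1 and 0 for IL1B at P5 and P10 in CD11B+ cells, and 1 for age in PBS CD11B+ cells, where scan date also gave 1. The deposited matrix gave 0 for IL1B at P10 in CD11B+ cells. Lhfpl3 was not called for age in PBS O4+ cells under upper-quartile scaling or with the deposited matrix (-0.49 in both), where the median of all genes was 0.18. Vcan was not called for age in CD11B+ cells with slide or scan date as a random block (adjusted p = 0.0596 and 0.216 from limma). The direction turned for Sox5 between cell types at P5 (-0.01 under upper-quartile scaling, -0.11 with the matrix) and for the interaction read by any probe of Bcan (0.43) and Vcan (-0.32). The cause was not tested.

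Leaving out 1 array, the counts in O4+ cells ranged from 0 to 0 for IL1B at P5, 1 to 2 for IL1B at P10, 3 to 4 for age in PBS, 0 to 1 for age in IL1B and 2 to 5 for the interaction. In CD11B+ cells they ranged from 1 to 2 for IL1B at P5, 1 to 1 at P10 and 2 to 4 for age, and between cell types from 9 to 9 at P5 and 8 to 9 at P10. Without replicate 5 of the P5 PBS group, Ptprz1 (0.79) and Bcan (0.72) were also called for age in CD11B+ cells.

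Samples share replicate numbers. Within O4+ cells, same-numbered PBS and IL1B samples correlated in their deviations between 0.07 and 0.30 at P5 and between -0.13 and 0.79 at P10. The 0.79 was that of replicate 6, and the next highest was 0.16. The PBS and IL1B arrays of replicate 6 were the only ones of that comparison on their slide and scan day. Slide and replicate number cannot be told apart there. Between O4+ and CD11B+ cells of PBS pups, which came from the same animals, the correlations were 0.05 to 0.36 at P5, where 5 of 6 samples matched their own number best, and -0.04 to 0.33 at P10, where 4 of 6 did. This hints at a pairing of the cell types, but not every correlation exceeded 0.1 and no source ties a number to a pool, so the numbers were not taken as a pairing. With the replicate number as a block, 1 gene was called for IL1B at P10 in O4+ cells and 2 for the interaction, and the other 8 counts were as reported.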
